A study of Homo sapiens with 2 samples.

Results

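The MYC network is examined here through 10 genes, namely the MYC paralogs MYC and MYCN, their partner MAX, the antagonists MXD1, MXD3, MXD4, MXI1, MNT and MGA, and the MAX-like gene MLX. They were chosen by name, and the table lists all 10 among its 18930 genes. Each had at least 10 reads over both libraries, the minimum met by 16210 genes in all. Bulk RNA sequencing gave 1 library labelled DR (dacarbazine-resistant) and 1 library labelled WT (wild type). Both carry the label A375, a human melanoma line, cultured with 10% fetal bovine serum, in DMEM by the labels and in RPMI-1640 by the study's methods. Dacarbazine (DTIC) is an alkylating drug. The labels state 105 days of "DITC" for the WT library as well as for the DR library, whereas the study's methods describe rising DTIC concentrations for the resistant cells. The group labels read DR and WT, while the title of the DR-labelled sample holds BR rather than DR and the other title holds wt. The count columns are tied to the samples by descriptions that differ by a single character. Both descriptions hold BR, and neither says wild type. Directions between the libraries therefore hold only as far as these descriptions are right.

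MYC and MYCN are basic helix-loop-helix leucine zipper (bHLHZip) transcription factors that bind DNA as dimers with MAX. The dimers recognize the E-box, whose core letters are CACGTG, and raise the transcription of genes for cell growth, ribosome production and metabolism. The MXD proteins, MXI1 and MNT compete for MAX and bring the SIN3 and histone deacetylase corepressors to the same sites, while MGA pairs with MAX within a Polycomb-type repressive complex. MLX takes the place of MAX in a parallel arm with MondoA (MLXIP) and ChREBP (MLXIPL), which respond to glucose, and it can also pair with some MXD proteins and with MNT.

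Promoter sequences are shown for MXD3, the member with the highest log2 fold change, and for the 3 members whose window holds an E-box. Each window runs from 250 bases before to 50 bases after a RefSeq start site on GRCh38.p14, written 5′ to 3′ on the strand of the gene. Capitals mark the E-box CACGTG, which reads the same on both strands. The windows are chr5:177312703-177313002 on the minus strand for MXD3, chr4:2262060-2262359 on the minus strand for MXD4, chr17:2401011-2401310 on the minus strand for MNT and chr17:42566850-42567149 on the plus strand for MLX.
MXD3: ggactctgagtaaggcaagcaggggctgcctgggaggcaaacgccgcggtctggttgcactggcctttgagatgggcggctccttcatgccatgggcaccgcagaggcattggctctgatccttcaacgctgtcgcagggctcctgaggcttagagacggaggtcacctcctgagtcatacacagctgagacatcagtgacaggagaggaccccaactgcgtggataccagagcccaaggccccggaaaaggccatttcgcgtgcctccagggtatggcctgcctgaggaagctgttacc
MXD4: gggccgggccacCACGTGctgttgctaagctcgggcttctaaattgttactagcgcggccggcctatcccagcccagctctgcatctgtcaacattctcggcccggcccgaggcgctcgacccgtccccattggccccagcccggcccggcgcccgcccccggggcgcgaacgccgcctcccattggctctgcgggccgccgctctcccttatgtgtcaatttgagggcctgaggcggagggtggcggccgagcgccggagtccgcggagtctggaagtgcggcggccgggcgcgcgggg
MNT: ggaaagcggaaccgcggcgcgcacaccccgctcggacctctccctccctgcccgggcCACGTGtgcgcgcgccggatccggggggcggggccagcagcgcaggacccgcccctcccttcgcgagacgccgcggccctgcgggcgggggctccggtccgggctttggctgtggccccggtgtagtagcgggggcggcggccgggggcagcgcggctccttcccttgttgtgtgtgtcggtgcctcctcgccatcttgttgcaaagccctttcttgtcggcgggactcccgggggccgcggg
MLX: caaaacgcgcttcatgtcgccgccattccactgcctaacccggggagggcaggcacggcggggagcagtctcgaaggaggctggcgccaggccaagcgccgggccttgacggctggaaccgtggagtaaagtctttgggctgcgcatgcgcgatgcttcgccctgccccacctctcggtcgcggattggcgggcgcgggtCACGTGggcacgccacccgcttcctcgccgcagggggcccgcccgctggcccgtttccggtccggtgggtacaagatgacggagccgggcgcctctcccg

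Of the 9 members matched in the RefSeq promoter table (all but MYC), 3 held the E-box in a window, against 8.77% of the 27305 genes with a window and 11.8% of those tested. Counted from the start site, the first base of the E-box lay at -238 in MXD4, at -193 in MNT and at -50 in MLX. The GC-box GGGCGG, the site of SP1-type factors, was searched on both strands and was found in a window of 9 of the 9 members, against 48.3% of all genes with a window and 71.9% of those tested. MAX had 2 windows, and MXI1 and MGA had 3 each, which gives these genes more letters to match. A match of letters does not show that a factor was bound.

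The estimated reads summed to 54878310 in the DR-labelled library and to 35294629 in the WT-labelled library, so that 3 reads were worth 0.0540 and 0.0861 CPM (the usual count scaled to library size). In the check of the labelled cell type, 12 of 14 melanocytic markers were matched in the table. Of these, 1 (MITF) exceeded the median gene in each library, and their median level was 0.567 CPM in the DR-labelled library and 0.373 CPM in the WT-labelled library. SOX10, a defining melanocytic factor, had 3 and 0 reads, and TYRP1, a pigment enzyme, had 0 and 17. On the log2 scale, 2 of the 8 melanocytic markers tested were higher in the DR-labelled library by 1 or more, and 0 were lower. The 2 were KIT, with 139 and 3 reads, and CDH19, with 364 and 75. Of 14 plasma cell markers, 12 exceeded the median gene in each library, with median levels of 253 and 177 CPM. Of these 14, 5 were higher in the DR-labelled library by 1 or more on the log2 scale and 0 were lower. Over all genes tested, 7.48% were higher and 4.16% were lower by as much. The median log2 fold change of the 14 was 0.33, with 8 values above 0 and 6 below. Their summed level was 5431 CPM in the DR-labelled library and 6355 CPM in the WT-labelled library. IRF4, a plasma cell factor known to act upstream of MYC in myeloma, had 600 CPM in the DR-labelled library and 831 CPM in the WT-labelled library. PRDM1, a plasma cell factor known to repress MYC, went the other way, with 403 and 283 CPM. The markers thus did not match the labelled cell type, and the samples are named by their labels.

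MYC was the member with the highest level in both libraries and was higher in the DR-labelled library. It had 54339 reads (978 CPM) in the DR-labelled library and 19532 reads (560 CPM) in the WT-labelled library. The log2 fold change, DR over WT on the scale of log2(CPM + 0.5), was 0.80, with a 95% Clopper-Pearson interval of 0.78 to 0.83. The interval covers read counting only, since 1 library per group leaves no replicate check. By CPM per kilobase, the scale on which levels are compared between genes, MYC lay at percentile 99.1 of the genes tested in the DR-labelled library and at percentile 98.6 in the WT-labelled library. Its fold change lay at percentile 90.0. In bulk RNA, a change in the share of cells that express a gene and a change in RNA per cell cannot be told apart.

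MYCN, the paralog known for its amplification in neuroblastoma, was low in both libraries. It had 345 reads (6.21 CPM) in the DR-labelled library and 310 reads (8.89 CPM) in the WT-labelled library. The log2 fold change was -0.49 (-0.70 to -0.27), opposite in sign to that of MYC. Per kilobase, the level of MYC was 163 times that of MYCN in the DR-labelled library (147 to 182) and 65.4 times that of MYCN in the WT-labelled library (58.4 to 73.4). MYCN had the lowest level of the 10 in both libraries.

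MAX, the shared partner of MYC, MYCN, the MXD proteins, MNT and MGA, was lower in the DR-labelled library. It had 2784 reads (50.1 CPM) there and 2344 reads (67.2 CPM) in the WT-labelled library, and its log2 fold change was -0.42 (-0.50 to -0.34). MLX, the partner in the parallel arm, had 3319 reads (59.7 CPM) and 2264 reads (64.9 CPM). The log2 fold change of MLX was -0.12 (-0.20 to -0.04), so both dimerization partners had a value below 0, that of MAX further below than that of MLX. FNTB and its readthrough CHURC1-FNTB lie on the strand opposite MAX and overlap it in the GENCODE annotation. FNTB had 124 reads in the DR-labelled library and 196 in the WT-labelled library, a log2 fold change of -1.16. CHURC1-FNTB had 453 and 452 reads, a log2 fold change of -0.64. Their part in the value of MAX was not tested. PSMC3IP overlaps MLX on the opposite strand and had a log2 fold change of 0.23.

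Among the antagonists, MXD3 differed most. It had 1838 reads (33.1 CPM) in the DR-labelled library and 512 reads (14.7 CPM) in the WT-labelled library, a log2 fold change of 1.14 (1.01 to 1.28), or 2.21-fold (2.01 to 2.44). MXD3 is the MXD gene known for expression in dividing cells, in contrast to the other MXD genes, which are known to rise on differentiation. Its estimated reads were not whole numbers as deposited. RAB24, a gene of the RAB GTPase family on the same strand, overlaps MXD3 and had a log2 fold change of 1.05, with 3433 and 1035 reads. PRELID1, on the opposite strand, overlaps MXD3 too and had 0.69, with 11352 and 4414 reads. Whether library preparation and counting kept strand is not given in the sources used here, and the part of these overlaps in the value of MXD3 was not tested.

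The other MXD genes were higher in the DR-labelled library by smaller steps. MXD4 had 3873 reads (69.7 CPM) in the DR-labelled library and 1878 reads (53.9 CPM) in the WT-labelled library, and its log2 fold change was 0.37 (0.29 to 0.45). MXI1, once called MXD2, had 3072 reads (55.3 CPM) and 1665 reads (47.8 CPM), with 0.21 (0.12 to 0.30). MXD1 had 2055 reads (37.0 CPM) and 1114 reads (32.0 CPM), also with 0.21 (0.10 to 0.31). The intervals of MXI1 and MXD1 overlapped each other almost wholly, and that of MXD3 lay apart from those of the other MXD genes. SNRNP27, which overlaps MXD1 on the same strand, had a log2 fold change of -0.07.

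MNT and MGA, the larger antagonists, were close to level. MNT, expressed in both resting and dividing cells, had 2996 reads (53.9 CPM) in the DR-labelled library and 1846 reads (53.0 CPM) in the WT-labelled library. Its log2 fold change was 0.03, and its interval of -0.06 to 0.11 held 0. MGA, which carries a T-box besides its bHLHZip domain, had 4754 reads (85.6 CPM) and 3157 reads (90.6 CPM), with -0.08 (-0.15 to -0.02). Without MYC and MXD3, the other 8 members had log2 fold changes between -0.49 and 0.37, with a median of -0.03.

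**Figure D1:**
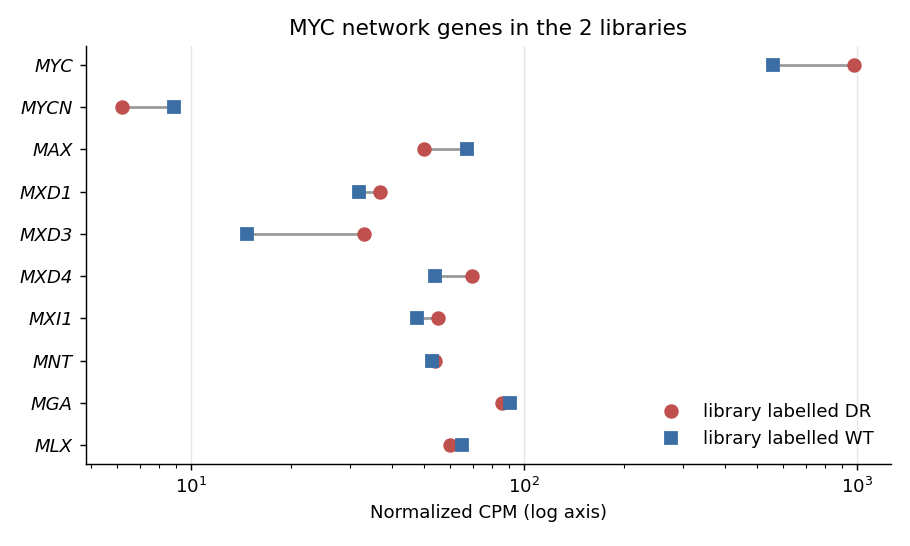
Level of each of the 10 genes in normalized CPM on a log axis, with a circle for the DR-labelled library and a square for the WT-labelled library. MYC (978 and 560 CPM) stands far to the right of the other members, MYCN (6.21 and 8.89 CPM) to the left of them, and the widest gap on the log axis is that of MXD3 (33.1 and 14.7 CPM).

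Across all genes tested, 1212 (7.48%) were higher in the DR-labelled library by 1 or more on the log2 scale and 674 (4.16%) were lower by as much. Of the 10 members, 1 (MXD3) was higher by this rule and 0 were lower. The lower bound of the counting interval of MXD3, 1.01, lay just inside the threshold. At a log2 fold change of at least 0.5, 2 members (MYC and MXD3) were higher and 0 were lower, against 17.7% and 13.9% of all genes tested. The median log2 fold change was 0.12 over the 10 members and 0.01 over all genes tested. The shares of members past either threshold on the higher side were thus near the background.

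Scaling to the reads of MAX, an alternative added after the data were seen, makes library size and gene length cancel and gives the change of each gene relative to its partner. Relative to MAX, the log2 ratio was 1.23 for MYC (exact interval 1.14 to 1.31) and 1.596 for MXD3 (1.43 to 1.76). For MXD4, MXI1 and MXD1 it was 0.80, 0.64 and 0.64. It was above 0 for MNT (0.45), MGA (0.34) and MLX (0.30) as well, so that the signs of MGA and MLX depended on whether all genes or MAX served as the reference. MYCN had -0.09, with an interval of -0.33 to 0.15 that held 0.

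**Figure D2:**
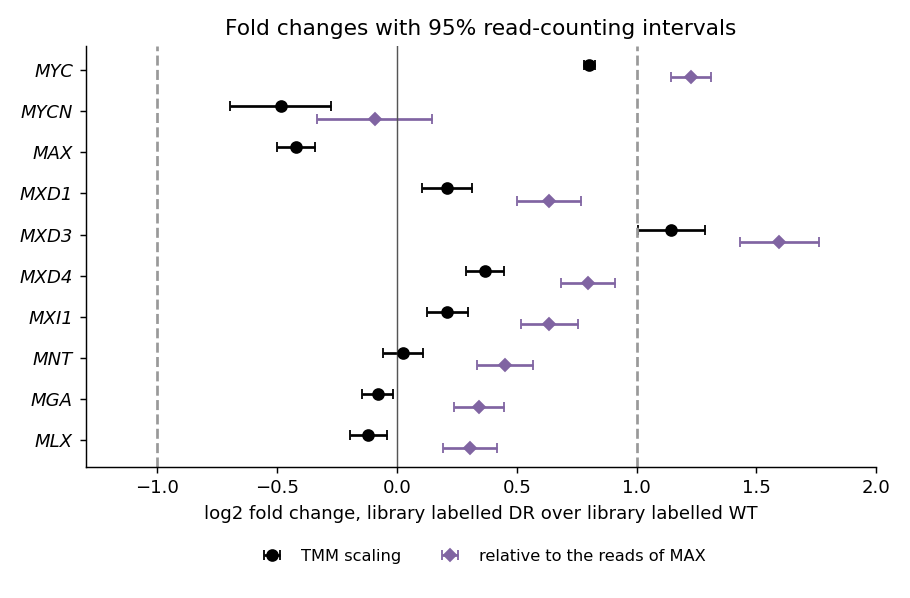
log2 fold change of each member, DR-labelled over WT-labelled library, after TMM scaling (circles) and relative to the reads of MAX (diamonds), with bars for 95% read-counting intervals and dashed lines at -1 and 1. After TMM scaling MXD3 (1.14) is the 1 member past a dashed line, and relative to MAX both MXD3 (1.596) and MYC (1.23) are.

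The make-up of the network differed between the libraries mainly through MYC. Of the summed CPM per kilobase of the 10 genes, MYC held 74.5% in the DR-labelled library and 63.7% in the WT-labelled library. The share of MAX was 5.03% and 10.1%, and that of MXD3 was 3.63% and 2.40%. The sum itself was 552 CPM per kilobase in the DR-labelled library and 370 in the WT-labelled library. Without MYC it was 141 and 134, a log2 ratio of 0.06.

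Ratios between partners were then taken per kilobase within each library, where scaling of the libraries does not enter. The ratio of MYC to MAX was 14.8 (14.3 to 15.4) in the DR-labelled library and 6.33 (6.06 to 6.61) in the WT-labelled library. The 6 antagonists together stood at 3.01 times MAX in the DR-labelled library and at 1.73 times MAX in the WT-labelled library. Against MYC they stood at 0.203 and 0.274. Relative to MAX, which itself had a log2 fold change of -0.42, MYC and the summed antagonists were thus both higher in the DR-labelled library. The sum of the antagonists was lower there relative to MYC. Of the 6 antagonists, only MXD3 had a log2 fold change (1.14) above that of MYC (0.80). The 4 MXD genes summed to 65.7 and 46.3 CPM per kilobase, a log2 ratio of 0.50. The ratio of MXD3 to the sum of MXD1, MXD4 and MXI1 was 0.439 and 0.238. No interval was computed for ratios that hold a sum over genes of different length.

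By CPM per kilobase, the order in the DR-labelled library was MYC, MAX, MLX, MXD4, MXD3, MXI1, MNT, MGA, MXD1 and MYCN. The counting intervals of MAX (27.7) and MLX (26.8) overlapped there, and those of all other neighbours in the order lay apart. In the WT-labelled library, the order was MYC, MAX, MLX, MXD4, MXI1, MNT, MXD3, MGA, MXD1 and MYCN. The intervals of MNT (9.75) and MXD3 (8.90), and of MXD3 and MGA (8.47), overlapped. MXD3 thus stood at rank 5 in the DR-labelled library and at rank 7 in the WT-labelled library, where its place between MNT and MGA was within counting error. By annotation in the table, 9 of the 10 members held the molecular function term protein dimerization activity, against 0.763% of the genes tested that held any such term. The members were chosen by name as factors that pair, so their share for this term follows from that choice. MLX lacked that term but held the narrower terms protein heterodimerization activity and protein homodimerization activity, as MAX did.

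**Figure D3:**
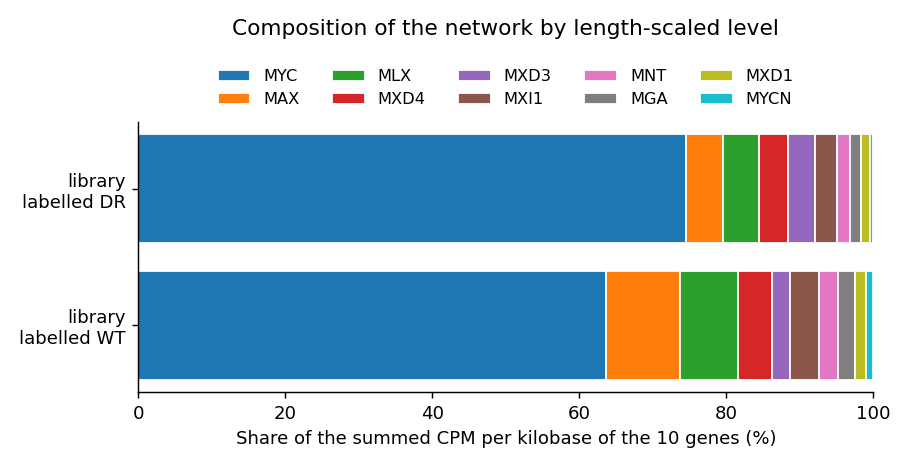
Share of each gene in the summed CPM per kilobase of the 10 members, as stacked bars from 0 to 100% for the DR-labelled library and the WT-labelled library. The segment of MYC takes 74.5% and 63.7%, and that of MAX 5.03% and 10.1%.

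The remaining bHLHZip genes of the network are MYCL, MLXIP and MLXIPL. MYCL, the third MYC paralog, had 400 reads (7.20 CPM) in the DR-labelled library and 116 reads (3.33 CPM) in the WT-labelled library, with a log2 fold change of 1.01 (0.74 to 1.28). It lay just past the threshold of 1, and its interval reached below it. MLXIP had the highest level of the 3 and the lowest value, with 6428 reads (116 CPM) and 6098 reads (175 CPM) and -0.59 (-0.64 to -0.54). MLXIPL had 48 and 18 reads, with 0.42 and an interval of -0.04 to 0.85 that held 0. By the threshold of 1, 1 of 3 was higher and 0 were lower, against 7.48% and 4.16% of all genes tested. A list of 3 genes is too small to compare such shares.

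Genes for proteins that work with the members were taken from lists made from general knowledge. Of 18 coactivator and elongation genes that MYC recruits, 0 were past 1 on the log2 scale either way, and their median was -0.15. RUVBL1, an ATPase of chromatin remodelling complexes, stood nearest that median, at -0.07. Of 15 SIN3 and histone deacetylase corepressor genes 0 were past the threshold as well, with a median of -0.13, which was the value of BRMS1, a subunit of SIN3 complexes. The 14 genes of the MGA complex gave 0 past the threshold and a median of -0.18, and HDAC1, HDAC2 and WDR5 among them also stand in the lists just described. TFDP1, a dimer partner of E2F factors in that complex, stood nearest, at -0.21. The lists of cofactors on the side of activation and of repression thus had medians slightly below that of all genes, at 0.01. Past the threshold of 1, 7.48% of all genes tested were higher and 4.16% were lower. Whether these small lists differ from those shares was not tested.

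Of 18 genes that control the stability or activity of MYC protein, 1 was higher and 0 were lower, with a median of -0.17. BIN1, which binds MYC and restrains its activity, had 618 reads (11.1 CPM) in the DR-labelled library and 173 reads (4.96 CPM) in the WT-labelled library, a log2 fold change of 1.09 (0.86 to 1.32). Of 14 regulators of MYC transcription, 1 was higher and 0 were lower, with a median of -0.28. SMAD3, a mediator of TGF-β signals that repress MYC, had 3439 reads (61.9 CPM) and 874 reads (25.1 CPM), with 1.29 (1.18 to 1.39). Over all genes tested, 7.48% were higher and 4.16% were lower, so the share higher in each of these lists was near the background.

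Targets that MYC is known to raise had medians slightly below 0, while MYC itself was at 0.80. Of 57 growth genes of this kind, mostly nucleolar and mitochondrial, 0 were past the threshold of 1, and the range was -0.73 to 0.34. The median was -0.08, which was the value of WDR74, a factor of large ribosomal subunit assembly, at 107 and 113 CPM. At the threshold of 0.5, 0 of these 57 were higher and 9 were lower, against 17.7% and 13.9% of all genes tested. Of 30 classical E-box targets, 1 was higher and 2 were lower by the threshold of 1, with a median of -0.24. Over all genes tested, 7.48% were higher and 4.16% were lower by that threshold, so the E-box targets were near the background. TERT, the catalytic subunit of telomerase, had 1479 reads (26.6 CPM) in the DR-labelled library and 450 reads (12.9 CPM) in the WT-labelled library, with 1.02 and an interval of 0.87 to 1.17 that held the threshold. PRPS2, which makes the precursor of nucleotides, was lower at 3997 reads (71.9 CPM) and 7630 reads (219 CPM), with -1.599 (-1.65 to -1.54). SLC1A5, a glutamine transporter, had 15540 reads (280 CPM) and 21396 reads (614 CPM), with -1.13 (-1.16 to -1.10).

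Genes that MYC is known to repress had a wider spread. Of 17, 3 were higher and 1 was lower, the median was 0.52, and 12 of 17 had a value above 0. Over all genes tested, 7.48% were higher, 4.16% were lower, and 8277 of 16210 had a value above 0. NDRG1, a gene of growth arrest and stress, had 7534 reads (136 CPM) in the DR-labelled library and 1874 reads (53.8 CPM) in the WT-labelled library, with 1.33 (1.25 to 1.40). CDKN2C, an inhibitor of CDK4 and CDK6, had 75 and 7 reads, with 1.40 (0.95 to 1.72). PDGFRB, a growth factor receptor, had 209 reads and 1 read, with a value of 3.01 (2.67 to 3.10) on the same scale. Its plain ratio of CPM, without the 0.5 added, was 131 with a counting interval of 23.3 to 5204. GAS1, a growth arrest gene, was lower, with 24 and 63 reads and a value of -1.31 (-1.68 to -0.89). Of the 4, 3 had fewer than 10 CPM in both libraries, and the number higher was 5 with a pseudocount of 0.1 CPM and 1 with 5 CPM.

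On the MLX side, 10 of 11 listed targets of MondoA or ChREBP were tested and 0 were past the threshold, with a median of -0.08. Over all genes tested, 7.48% were higher and 4.16% were lower, and with 10 genes a count of 0 says little. FASN, the fatty acid synthase, stood near the median of these targets at 748 and 751 CPM, with -0.01 (-0.03 to 0.02). Across all genes tested with a RefSeq window, the 1516 with an E-box in a window had a median log2 fold change of 0.01 and the 11287 without one had 0.00. Of the former 7.06% were higher by at least 1 and 3.56% lower, and of the latter 6.98% and 4.17%. The E-box letters were in a window of 25 of the 46 matched growth genes that MYC raises (54.3%), a list that was drawn up as MYC targets.

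**Figure D4:**
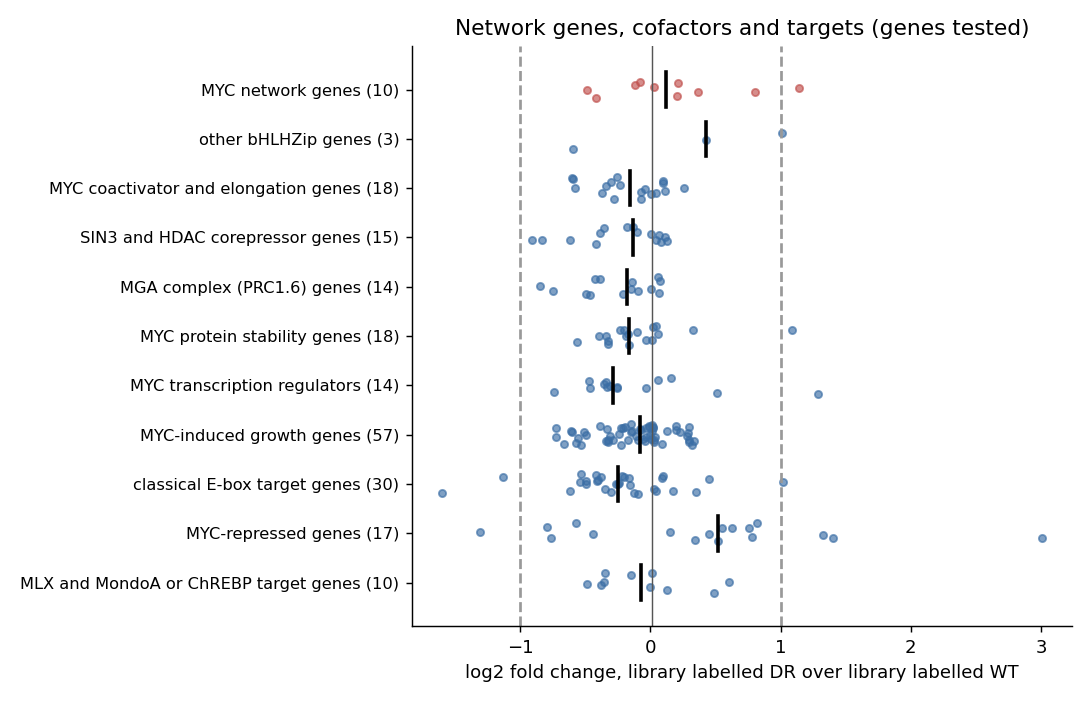
log2 fold change, DR-labelled over WT-labelled library, of each gene tested in the network (first row) and in the lists of cofactors, regulators and targets, with the number tested in brackets. Points are genes, black bars are medians, the thin line is the median of all genes tested (0.01), and dashed lines mark -1 and 1. The 57 growth genes that MYC raises lie between -0.73 and 0.34, while the 17 genes it represses have a median of 0.52 and a point at 3.01, PDGFRB.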

How the data were processed

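Total RNA of 1 library labelled DR and 1 library labelled WT was sequenced. The authors deposited 1 table of 18930 genes with estimated counts per gene and library, not scaled, and gene lengths in bases. The submitters' processing notes name Bowtie 0.12.2 and hg19; the counting tool and annotation are not given in the sources used here. The authors' own log2 ratios, p-values and q-values were not used.

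For 663 genes the table holds no count. Estimated counts were rounded to whole numbers (9108 genes had fractions, MXD3, MNT and MLX among them), scaled by the TMM method of edgeR 4.0.16 (factors 1.01 and 0.988; R 4.3.3) and expressed as CPM. A minimum of 10 reads summed over the libraries left out 2057 genes. Log2 fold changes are on the scale of log2(CPM + 0.5), which understates changes of low genes. The quasi-likelihood test of edgeR could not be fitted with 1 library per group, so no p-value is given, and a gene counts as higher or lower at a log2 fold change of at least 1. Intervals are 95% Clopper-Pearson intervals (SciPy 1.17.1), conditional exact ones relative to MAX, and Poisson ones for the order of levels. Reads carry no molecular identifiers, so intervals cover counting error only. The fold change step was tested on simulated data. Alternatives were DESeq2 1.42.0 size factors, library totals, upper quartiles, other pseudocounts, filters and thresholds.

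The members and lists were chosen with earlier results of these data known. Named are all members, at most 4 genes past the threshold per list, and otherwise the gene nearest the list median. Of the listed symbols, TYR and S100B were not matched, and CIP2A was matched as KIAA1524. IRF4, PRDM1, MITF, SOX10, TYRP1, MLXIP, MLXIPL and genes that overlap or neighbour members were named after their values were seen. GENCODE v29 and RefSeq (GRCh38.p14) served for overlaps, neighbours and promoters only.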

Additional observations from a re-analysis of the deposited data

How the results depend on the processing

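Depth limits MYCN most among the members, with 345 and 310 reads. No paired analysis was possible because each group has 1 library, and for the same reason no replicate was left out.

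With DESeq2's size factors and with a pseudocount of 0.1 CPM, all 10 members stayed within their counting intervals. MYC (0.80) was 0.84 with library totals and 0.84 with upper quartiles, outside its counting interval of 0.78 to 0.83. A change of scaling shifts all genes nearly alike. MAX (-0.42), for example, was -0.39 with library totals, within its wider interval. MXD3 (1.14) was 0.95 with a pseudocount of 5 CPM, under the threshold. Relative to MAX (added after seeing the data), values were 1.23 for MYC, -0.094 for MYCN, 0.64 for MXD1, 1.596 for MXD3, 0.80 for MXD4, 0.64 for MXI1, 0.45 for MNT, 0.34 for MGA and 0.30 for MLX, and the signs of MGA and MLX turned.

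The number of members higher (1) was 0 with a pseudocount of 5 CPM, 2 at a log2 threshold of 0.5, 0 at 2, and 0 among genes with whole-number counts (added), where MXD3 is not tested. The numbers of all genes, 1212 higher and 674 lower, were 423 and 333 with 5 CPM, 2873 and 2254 at 0.5, 339 and 189 at 2, and 709 and 358 with whole-number counts. No filter, or at least 50 reads, left these counts within 1.5 times.

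At 0.5 the lists gave 1 lower bHLHZip gene, 3 lower coactivators, 3 lower corepressors, 2 lower MGA complex genes, 1 lower stability gene, 2 higher and 1 lower regulators, 9 lower growth genes, 5 lower E-box targets, 9 higher and 4 lower repressed genes, and 1 higher MLX target. At 2 the counts of higher bHLHZip, stability, regulator and E-box genes and of lower E-box and repressed genes were 0, and 1 repressed gene was higher. With 5 CPM the counts of higher bHLHZip, stability and E-box genes and of lower repressed genes were 0, 1 repressed gene was higher, and the median of the repressed genes was 0.19 instead of 0.52. With 0.1 CPM 5 repressed genes were higher. The median of the E-box targets (-0.24) was -0.21 with library totals and -0.21 with upper quartiles. With whole-number counts, on fewer genes, 1 E-box target was lower, and medians were 1.01 for bHLHZip genes, -0.017 for coactivators, -0.15 for growth genes, -0.17 for E-box targets and -0.14 for MLX targets.

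Without division by length, the ratio of MYC to MAX was 19.5 and 8.33 in the libraries labelled DR and WT, that of the antagonists to MYC 0.342 and 0.521, of the MXD genes to MAX 3.89 and 2.21, of the antagonists to MAX 6.68 and 4.34, and of MXD3 to the other MXD genes 0.204 and 0.110. The library with the higher ratio was the same on both scales.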

Other observations

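The genes that neighbour the members were described with RefSeq's order of protein-coding genes, taking the 10 nearest tested genes, a choice made after the members' values were seen. Around MXD3, 2 of 10 neighbours had a log2 fold change of at least 1, against 7.48% of all genes tested, and the median was 0.43. The 2 were FGFR4, a growth factor receptor, at 1.48 (981 and 210 reads) and RAB24, which overlaps MXD3 itself, at 1.05. Also among the 10 were LMAN2, a cargo lectin of the secretory pathway, at 0.82 (13558 and 4826 reads) and RGS14, a regulator of G protein signals, at 0.90 (3403 and 1134 reads). GRK6 (-0.29) and PRR7 (-0.80) had values below 0.

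Around MXD4 (0.37), the 10 neighbours had values from -0.51 to 0.15 and a median of -0.26, and MXD4 was the highest of these 11 genes. Around MAX (-0.42) the median was -0.66, with RAB15 at -2.33 and SPTB, a spectrin of the membrane skeleton, at 2.67. Around MYC (0.80) the median was -0.13, with 2 of 10 neighbours higher and 2 lower, against 7.48% and 4.16% of all genes tested. The medians around the other 6 members lay between -0.26 and 0.44.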
